A study of Mus musculus with 28 samples.

Results

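The proteasome and immunoproteasome genes were followed across cortical tissue from 28 mice. Members were the rows with a single annotated gene symbol beginning Psm, then a letter from a to g and a digit, with the brightest row taken for each symbol. The rule found 50 symbols among 30808 named genes, each with 1 row. Of these, 46 encode parts, activators, assembly factors or the inhibitor of the proteasome, and 4 are pseudogenes or other genes with such a name (Psmb5-ps, Psmb6-ps, Psmc3ip and Psme3ip1). Psmb5 and Psme2 were measured only in rows that list several genes, so no value is given for them.

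The animals formed 4 groups of 7 mice, aged 12 to 15 weeks. They were wild type (WT) or knockout for Rbm5 (KO), a gene for an RNA-binding splicing regulator, and received sham treatment or controlled cortical impact (CCI), a mechanical brain injury. No source used here gives the knockout's allele. Sham mice were anaesthetised without a craniotomy, whereas CCI mice had a craniotomy over the left parietal cortex and an impact at 6 m/s to a depth of 1.2 mm, so the effects of craniotomy and impact cannot be told apart. Cortex was taken 48 h later from all groups. WT sham, WT CCI and KO CCI each held 4 females and 3 males, and KO sham held 3 females and 4 males.

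Each array gave log2 signal for 65956 tested rows, and array medians lay between 5.79 and 5.90. Rbm5 itself fell by 1.02 on the log2 scale in KO after sham and fell by 0.91 after CCI. Neuronal markers, averaged over 8 genes, lay between 13.93 and 14.44 on all 28 arrays. Markers of striatum or choroid plexus were high on 7 arrays, namely replicate 25 of WT sham, replicates 13, 14, 16 and 35 of WT CCI, and replicates 22 and 40 of KO CCI, and counts are given with and without these. Levels of different genes come from different probes and are not compared with each other. These are bulk tissue values, in which a change in the number of cells of a type and a change in RNA per cell cannot be told apart.

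The proteasome degrades proteins tagged with ubiquitin. Its barrel-shaped 20S core has outer rings of alpha subunits (Psma genes) and inner rings of beta subunits (Psmb genes), among them the catalytic ones, and the 19S regulatory particle, built of ATPases (Psmc genes) and non-ATPase subunits (Psmd genes), recognises, unfolds and feeds in the substrate. Under interferon, cells replace the catalytic subunits Psmb6, Psmb7 and Psmb5 by Psmb9, Psmb10 and Psmb8 and make the PA28 activator of Psme1 and Psme2, which together favour peptides for MHC class I. In brain, microglia are a known site of this immunoproteasome.

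Psmb9, Tap1 and Psmb8 lie side by side in the MHC region of chromosome 17 (GRCm38.p6). Psmb9 spans 34182030 to 34187330, Tap1, which encodes a subunit of the peptide transporter, spans 34187556 to 34197225, and Psmb8 spans 34198195 to 34201454. Psmb9 and Tap1 are separated by 225 bases, and Psme1 is on chromosome 14 at 55578494 to 55581527. RefSeq promoter windows of 300 bases, 250 before the annotated start and 50 from it, matched 40 of the 50 members. They were searched on both strands for an interferon-stimulated response element (ISRE, GAAA and GAAA separated by 2 bases), bound by interferon regulatory factors, a gamma-activated site (GAS, TTCNNNGAA), found in genes that respond to interferon gamma, an antioxidant response element (ARE, TGACNNNGC), bound by Nfe2l2 and Nfe2l1 with small Maf proteins, and an NF-kappaB site (GGG and TTTCC separated by 2 bases). Windows are shown for Psmb8 and Psme1, the interferon-inducible members called in both genotypes. They are also shown for Psmb6, the constitutive member with the largest rise in WT, and for Psmb9, which shares its locus with Psmb8 but was not called. Each is written 5′ to 3′ on the gene's strand, with a motif match in capitals.
Psmb8, chr17:34197945-34198244, plus strand: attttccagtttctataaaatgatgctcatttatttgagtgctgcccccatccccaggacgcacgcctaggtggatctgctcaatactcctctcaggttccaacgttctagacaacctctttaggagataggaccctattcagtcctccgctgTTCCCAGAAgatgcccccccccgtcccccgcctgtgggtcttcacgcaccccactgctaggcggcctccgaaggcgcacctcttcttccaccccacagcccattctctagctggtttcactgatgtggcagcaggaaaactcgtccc
Psme1, chr14:55578244-55578543, plus strand: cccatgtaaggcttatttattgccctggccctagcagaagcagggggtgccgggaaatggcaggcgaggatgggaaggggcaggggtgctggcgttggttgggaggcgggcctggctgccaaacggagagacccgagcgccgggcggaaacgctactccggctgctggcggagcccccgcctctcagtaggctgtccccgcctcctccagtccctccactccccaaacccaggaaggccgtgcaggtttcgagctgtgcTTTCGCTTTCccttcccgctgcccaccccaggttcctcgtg
Psmb6, chr11:70525107-70525406, plus strand: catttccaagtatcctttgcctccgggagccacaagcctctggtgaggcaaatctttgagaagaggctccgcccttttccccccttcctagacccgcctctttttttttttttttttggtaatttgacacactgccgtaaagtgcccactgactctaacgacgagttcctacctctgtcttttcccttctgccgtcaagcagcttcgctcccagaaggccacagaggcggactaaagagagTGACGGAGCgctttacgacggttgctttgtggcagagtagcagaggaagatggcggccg
Psmb9, chr17:34187281-34187580, minus strand: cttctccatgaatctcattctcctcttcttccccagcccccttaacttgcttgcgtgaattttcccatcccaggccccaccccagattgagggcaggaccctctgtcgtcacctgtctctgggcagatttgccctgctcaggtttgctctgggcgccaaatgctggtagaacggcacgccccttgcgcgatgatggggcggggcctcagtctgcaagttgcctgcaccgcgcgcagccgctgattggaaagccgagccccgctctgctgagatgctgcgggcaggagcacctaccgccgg
The Psmb8 window holds a GAS match at -97 to -89, counted as bases away from the start base of the window's gene annotation. The Psme1 window holds an ISRE match on the minus strand, 9 to 18 bases after that start base. The Psmb6 window holds an ARE match at -9 to -1 from the start base used for its window. The annotated span of Psmb6 begins further upstream, at 70525324, so this match lies inside that span. The Psmb9 window matched none of the 4 letter patterns, and neither did that of Psmb10, an inducible member called in WT, whose sequence is not printed. Among the 40 members, 5 windows matched the ISRE (12.5%, against 3.99% of 27025 genes), 3 the GAS (7.5% against 9.55%), 5 the ARE (12.5% against 13.99%) and 1 the NF-kappaB pattern (2.5% against 1.89%). These matches describe letters in the windows and are not evidence of binding.

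The first question was how the members changed with injury in WT cortex. Of the 50 members, 24 rose and 0 fell, against 8.86% of all tested rows that rose and 7.96% that fell (limma, adjusted p under 0.05). All 24 were among the 46 proteasome genes, whose median log2 change was 0.15, while the median over all tested rows was -0.02. In 10 members every CCI array lay above every sham array, as it did in 4.44% of all rows. Among named genes 13.8% rose. The changes were small, reaching 1.41-fold at most.

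In KO cortex the same comparison gave 10 members that rose and 0 that fell, against 8.43% and 8.27% of all tested rows. Among named genes 12.5% rose and 8.78% fell. The members' count depended on the scaling, with 17 that rose and 0 that fell after quantile normalization. With each array centred on its median, 6 rose and 2 fell (Psme3 and Psme4). In WT the same scalings gave 24 and 17 that rose and 0 that fell. Of all 65956 rows, 5740 and 5391 rose in WT under these scalings, and 5236 rose in KO after quantile normalization. Centring also turned the split of all rows in KO from 5560 higher and 5457 lower to 4021 and 7576. The median log2 change of the 46 proteasome genes was 0.07, and that of all rows 0.01. The groups did not overlap in 4 members (Psme1, Psmb8, Psmd2 and Psma8), against 3.51% of rows. Called in both genotypes were 9 members, which is 9 of the 24 of WT and 9 of the 10 of KO: Psma6, Psmb2, Psmb6, Psmb8, Psmc2, Psmd2, Psmd6, Psmd8 and Psme1. The KO and WT comparisons share no arrays, but they share the fit's estimate of each row's spread, so their calls are not independent. Psma8 was the 1 member called in KO and not in WT.

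**Figure D1:**
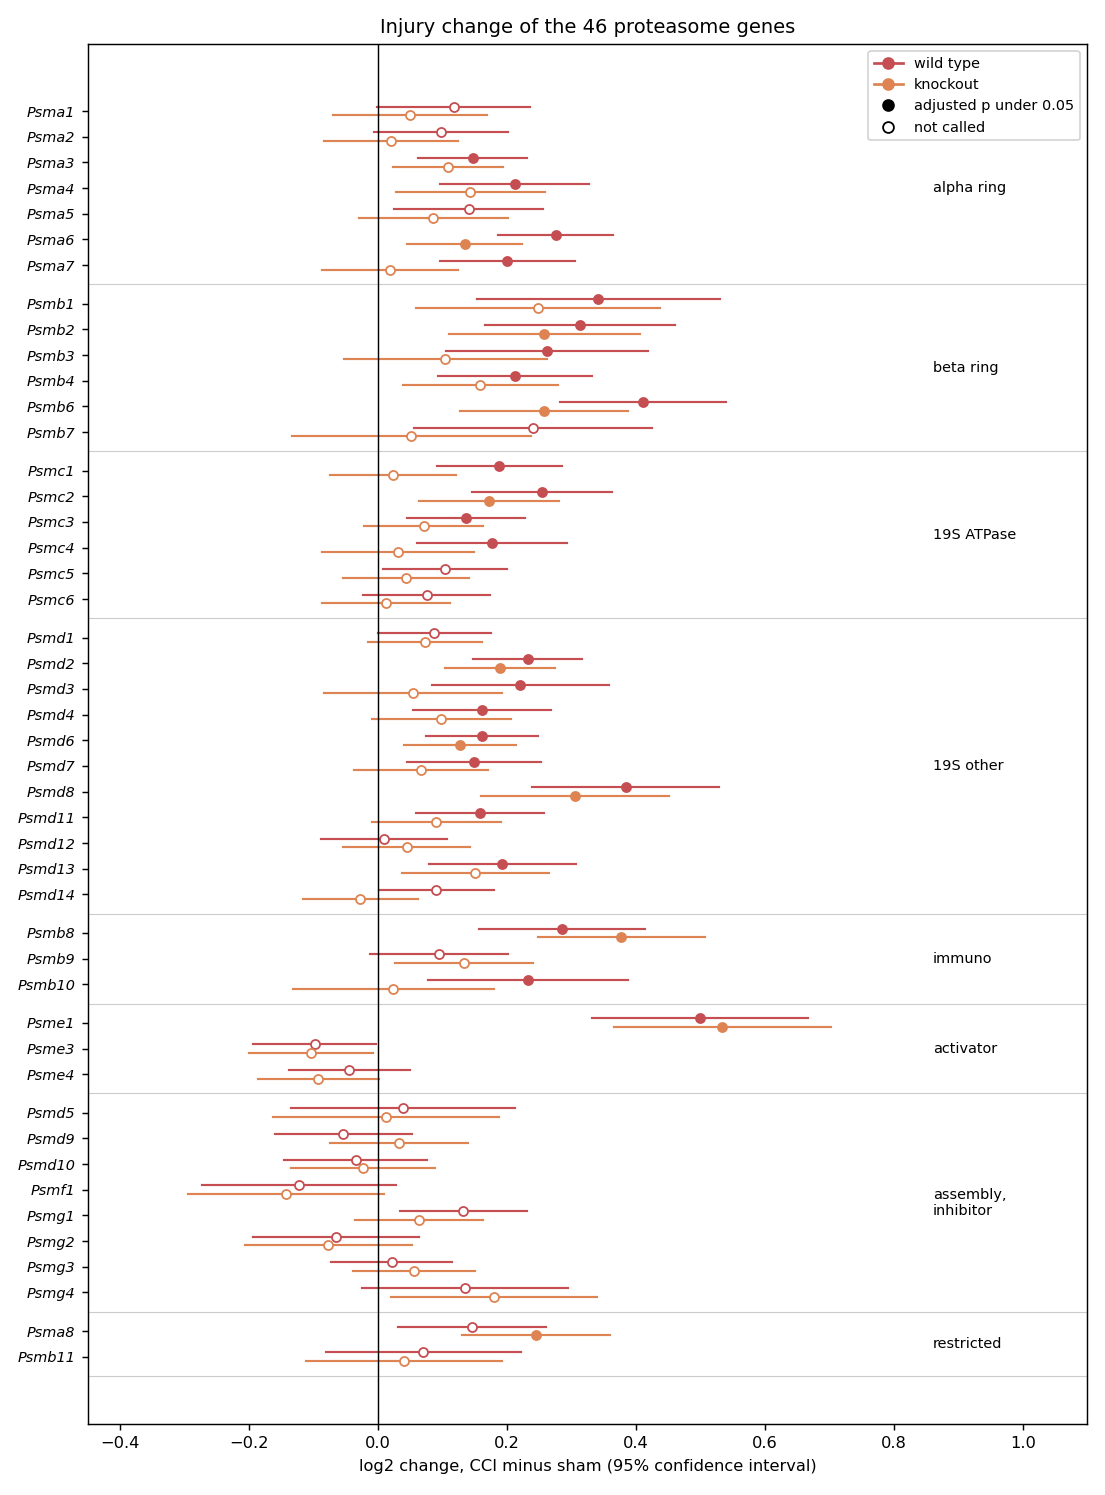
Log2 change from sham to CCI (x axis) with its 95% confidence interval for each of the 46 proteasome genes (y axis), ordered by role, in wild type (red) and knockout (orange). Filled circles passed adjusted p under 0.05 in limma. The 24 filled wild type points and 10 filled knockout points all lie to the right of 0, and the assembly factors have none.

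Psme1, a subunit of the interferon-inducible PA28 activator, had the largest change of all members in both genotypes. Its log2 signal in WT sham had a lowest value of 8.23, a median of 8.26 and a highest of 8.58, and in WT CCI 8.59, 8.85 and 9.07. In KO sham these values were 8.15, 8.17 and 8.36, and in KO CCI 8.56, 8.71 and 9.16. Every CCI array lay above every sham array of its genotype. Psme1 rose by 0.50 in WT (SE 0.082, 1.41-fold, limma adjusted p = 4.2e-05) and by 0.53 in KO (SE 0.082, 1.45-fold, limma adjusted p = 2.5e-05). None of the 30 constitutive 20S and 19S subunits among the members had a larger change in either genotype. This did not hold for all the inducible genes. In WT 4 constitutive subunits had a larger change than Psmb8, 26 than Psmb9 and 8 than Psmb10. In KO these counts were 0, 10 and 25. The dim signal of Psmb8 and Psmb9, described below, limits these counts.

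Psmb8, the immunoproteasome subunit that takes the place of Psmb5, also rose in both genotypes. Its log2 signal ranged from 5.39 to 5.66 in WT sham (median 5.47) and from 5.57 to 6.02 in WT CCI (median 5.76). In KO sham it ranged from 5.30 to 5.54 (median 5.38) and in KO CCI from 5.62 to 6.06 (median 5.73). WT sham and WT CCI overlapped through 1 sham array, replicate 27, and 5 of 7 CCI arrays lay above all sham arrays. In KO the groups did not overlap. The rise was 0.29 in WT (SE 0.063, limma adjusted p = 0.0014) and 0.38 in KO (SE 0.063, limma adjusted p = 7.6e-05).

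Psmb9, the counterpart of Psmb6, was not called. Its log2 signal ranged from 4.88 to 5.08 (median 4.97) after sham and from 4.95 to 5.25 (median 5.06) after CCI in WT, and from 4.84 to 5.07 (median 4.95) and 4.97 to 5.27 (median 5.09) in KO. All these ranges overlapped. The log2 change was 0.09 in WT (95% confidence interval -0.01 to 0.20, limma adjusted p = 0.257) and 0.13 in KO (0.03 to 0.24, limma adjusted p = 0.0844). The mean signals of Psmb8 and Psmb9 over all arrays lay below the lowest array median and inside the range of the 23 background probe rows, 2.63 to 6.59. Their signal was thus not shown to be above background, so no exact fold is given by them. By the array median this also applied to Psma8, Psmb11, Psmg3, Psmg4, Psmb6-ps and Psmc3ip.

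Psmb10, the counterpart of Psmb7, ranged from 7.09 to 7.40 in WT sham (median 7.37) and from 7.29 to 7.76 in WT CCI (median 7.52). Of the WT CCI arrays, 6 lay above every sham array. It rose by 0.23 in WT (SE 0.075, limma adjusted p = 0.0325). Leaving out any 1 of 5 arrays (replicate 2 or 3 of WT sham, or replicate 14, 15 or 34 of WT CCI) ended this call, with an adjusted p of up to 0.0893, as did leaving out the 7 arrays with striatum or choroid plexus signal (adjusted p = 0.0543). In KO sham it ranged from 7.20 to 7.48 (median 7.38) and in KO CCI from 7.18 to 7.62 (median 7.40), which overlapped on both sides. Its log2 change in KO was 0.02 (95% confidence interval -0.13 to 0.18, limma adjusted p = 0.896). The difference between the genotypes' changes of Psmb10 was -0.21 (95% confidence interval -0.43 to 0.01) and was not called (limma adjusted p = 0.812).

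**Figure D2:**
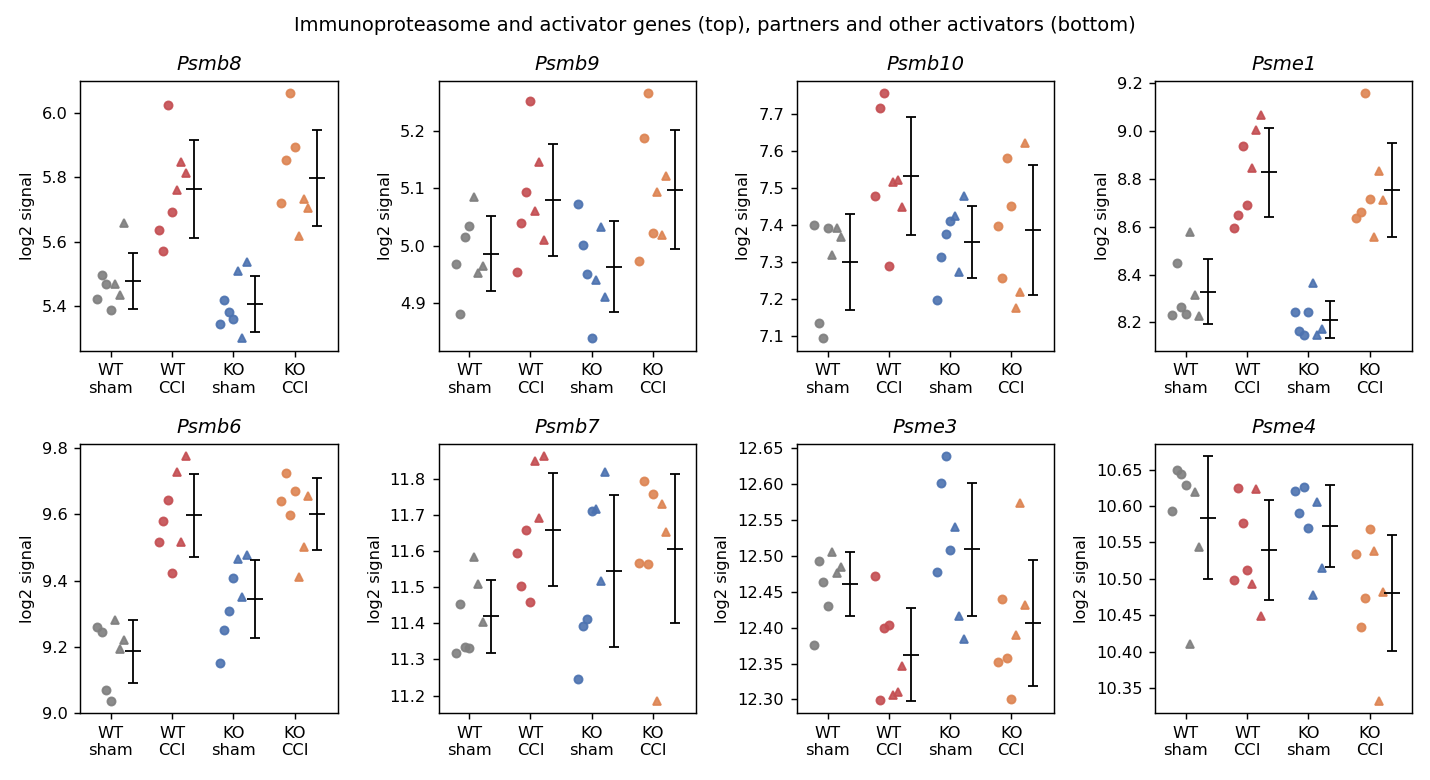
Log2 signal (y axis) of each array for Psmb8, Psmb9, Psmb10 and Psme1 (top) and for Psmb6, Psmb7, Psme3 and Psme4 (bottom) in the 4 groups of 7 mice, with mean and SD beside them and a scale for each gene. Circles are title numbers 1 to 24 and triangles 25 to 42. Psme1 separates CCI from sham in both genotypes, and Psme3 and Psme4 overlap between all groups.

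The other activators were not called in either genotype. Psme3, which forms the nuclear PA28-gamma activator, ranged from 12.38 to 12.50 in WT sham (median 12.48) and from 12.30 to 12.47 in WT CCI (median 12.35). In KO it ranged from 12.38 to 12.64 after sham (median 12.51) and from 12.30 to 12.57 after CCI (median 12.39). Its log2 change was -0.10 in both WT (limma adjusted p = 0.167) and KO (limma adjusted p = 0.141), and it was not called. Psme4, the PA200 activator, ranged from 10.41 to 10.65 after sham and 10.45 to 10.62 after CCI in WT, and from 10.48 to 10.63 and 10.33 to 10.57 in KO. Its medians were 10.62, 10.51, 10.59 and 10.48, and its log2 change was -0.04 in WT and -0.09 in KO, neither called (limma adjusted p = 0.6 and 0.192). With each array centred on its median, both were called lower in KO (limma adjusted p = 0.0387 and 0.0388).

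Among the constitutive beta subunits, 5 of 6 rose in WT and 2 of 6 in KO, with median log2 changes of 0.29 and 0.20. Psmb6, which carries the caspase-like activity, ranged from 9.04 to 9.28 in WT sham (median 9.22) and from 9.42 to 9.78 in WT CCI (median 9.58), with no overlap. In KO it ranged from 9.15 to 9.48 after sham (median 9.35) and from 9.41 to 9.72 after CCI (median 9.64), and 6 of 7 CCI arrays lay above all sham arrays. It rose by 0.41 in WT (SE 0.063, 1.33-fold, limma adjusted p = 1.7e-05) and by 0.26 in KO (SE 0.063, limma adjusted p = 0.0044). Psmb2 ranged from 8.12 to 8.51 (median 8.28) after sham and 8.37 to 8.87 (median 8.63) after CCI in WT, and from 8.27 to 8.65 (median 8.43) and 8.5 to 8.82 (median 8.65) in KO. Its groups overlapped in both genotypes, and it rose by 0.31 in WT and 0.26 in KO.

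Psmb1, a structural beta subunit, ranged from 12.12 to 12.32 in WT sham (median 12.26) and from 12.34 to 12.84 in WT CCI (median 12.52), with no overlap, and rose by 0.34 (SE 0.092, limma adjusted p = 0.0089). In KO sham it ranged from 12.05 to 12.60 (median 12.21) and in KO CCI from 12.34 to 12.68 (median 12.52), and the change of 0.25 was not called (limma adjusted p = 0.0672). Psmb7, which carries the trypsin-like activity, ranged from 11.32 to 11.58 (median 11.40) after sham and 11.46 to 11.86 (median 11.66) after CCI in WT, and from 11.25 to 11.82 (median 11.52) and 11.18 to 11.79 (median 11.65) in KO. The groups overlapped in both genotypes. Its log2 change of 0.24 in WT and 0.05 in KO was not called (limma adjusted p = 0.0679 and 0.787). Psmb3 and Psmb4 rose in WT by 0.26 and 0.21, and their changes of 0.10 and 0.16 in KO were not called.

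In the alpha ring, 4 of 7 subunits rose in WT (Psma3, Psma4, Psma6 and Psma7) and 1 of 7 in KO (Psma6). Psma6 rose by 0.28 in WT (SE 0.043, limma adjusted p = 2.6e-05), with values from 10.37 to 10.61 in sham and 10.66 to 10.82 in CCI. In KO it ranged from 10.52 to 10.68 in sham and 10.67 to 10.81 in CCI and rose by 0.13 (limma adjusted p = 0.0332). Leaving out any 1 of 8 KO arrays (replicates 9, 10, 11 and 12 of sham, 21, 22, 41 and 42 of CCI) ended the call, with adjusted p up to 0.0901, and so did leaving out the 7 arrays with striatum or choroid plexus signal (adjusted p = 0.0733). Changes over the 7 subunits lay between 0.10 and 0.28 in WT and between 0.02 and 0.14 in KO. Psma8, the testis form of an alpha subunit, is dim here, from 5.01 to 5.32 in KO sham (median 5.29) and from 5.46 to 5.54 in KO CCI (median 5.48). It was called in KO (0.24, SE 0.056, limma adjusted p = 0.0023). In WT, where it ranged from 5.13 to 5.48 in sham (median 5.28) and from 5.28 to 5.61 in CCI (median 5.41), its change of 0.15 was not called (limma adjusted p = 0.0758). Psmb11, the thymus subunit, had changes of 0.07 and 0.04, neither called.

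In the regulatory particle, 4 of 6 ATPases rose in WT (Psmc1, Psmc2, Psmc3 and Psmc4) and 1 of 6 in KO (Psmc2). Psmc2 rose by 0.25 in WT (limma adjusted p = 0.000776) and by 0.17 in KO (limma adjusted p = 0.0236), and the latter call ended when replicate 10 of KO sham or replicate 22 of KO CCI was left out (adjusted p up to 0.0752). The WT call of Psmc3 ended when any 1 of 8 WT arrays was left out (replicates 1, 2, 3, 4 and 26 of sham, 15, 34 and 36 of CCI, adjusted p up to 0.0789). That of Psmc4 ended with any 1 of 6 (replicates 1, 3 and 26 of sham, 13, 14 and 15 of CCI, up to 0.0745) and without the 7 arrays (adjusted p = 0.192), as did the KO call of Psmc2 without these 7 (adjusted p = 0.0981).

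Of the 11 non-ATPase subunits, 8 rose in WT and 3 in KO (Psmd2, Psmd6 and Psmd8). Psmd8, a lid subunit, ranged from 9.99 to 10.25 in WT sham (median 10.15) and from 10.33 to 10.76 in WT CCI (median 10.52), with no overlap. In KO it ranged from 10.01 to 10.36 in sham (median 10.21) and from 10.32 to 10.62 in CCI (median 10.56), and 5 of 7 CCI arrays lay above all sham arrays. Psmd8 rose by 0.38 in WT (SE 0.071, 1.30-fold, limma adjusted p = 0.000193) and by 0.31 in KO (SE 0.071, limma adjusted p = 0.0026). Psmd2, a base subunit that binds substrate shuttles, rose by 0.23 and 0.19 without overlap in either genotype. The rise of Psmd6 in KO (0.13, limma adjusted p = 0.0393) was no longer called when any 1 of 9 KO arrays was left out (replicates 9, 11, 12, 31 and 32 of sham, 21, 22, 41 and 42 of CCI), with adjusted p up to 0.105. Without the 7 arrays with striatum or choroid plexus signal Psmd6 was called in neither genotype (adjusted p = 0.0705 in WT and 0.13 in KO).

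Other WT calls of non-ATPase subunits also ended when single WT arrays were left out. For Psmd7 these were 9 arrays (replicates 1, 2, 3 and 27 of sham, 13, 14, 15, 16 and 34 of CCI, adjusted p up to 0.105), and for Psmd4 8 arrays (replicates 1, 3, 4 and 26 of sham, 14, 34, 35 and 36 of CCI, up to 0.0763). For Psmd11 they were CCI replicates 15, 34 and 36 (up to 0.0639), and for Psmd3 sham replicate 26 and CCI replicate 36 (up to 0.0536). The Psmd7 call also ended without the 7 arrays (adjusted p = 0.179). With each array centred on its median, Psmb10, Psmc3, Psmc4, Psmd3, Psmd4, Psmd7 and Psmd11 in WT and Psma6, Psmb2, Psmc2 and Psmd6 in KO were not called.

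The 5 other non-ATPase and ATPase subunits not called in either genotype were Psmc5, Psmc6, Psmd1, Psmd12 and Psmd14, with WT changes between 0.01 and 0.10. Psmd14 is the deubiquitinase of the lid. The 8 assembly factors and the inhibitor (Psmd5, Psmd9, Psmd10, Psmf1 and Psmg1 to Psmg4) included 0 called members in either genotype. At an unadjusted p under 0.05 there was 1 in each, and their changes lay between -0.12 and 0.13 in WT and between -0.14 and 0.18 in KO. The 4 pseudogenes and other genes were not called either.

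Taking the 30 constitutive subunits that match the rule as a group, 21 rose in WT and 7 in KO. Their median log2 changes were 0.18 and 0.09. Their mean signal per array ranged from 10.16 to 10.30 in WT sham (median 10.24) and from 10.33 to 10.52 in WT CCI (median 10.41), with no overlap. In KO it ranged from 10.20 to 10.34 after sham (median 10.29) and from 10.28 to 10.48 after CCI (median 10.40), with overlap. In WT the array means were 10.23 ± 0.049 (SD, n = 7) after sham and 10.42 ± 0.062 after CCI, and in KO 10.28 ± 0.055 and 10.39 ± 0.064. KO CCI replicate 40 was the lowest of its group in 13 of the 30 subunits and replicate 22 the highest in 17. WT sham replicate 25 was the highest of its group in 16 and WT CCI replicate 16 the lowest in 13. The striatum list averaged 10.07 on KO CCI replicate 40 and 9.55 on WT CCI replicate 16, against group medians of 8.21 and 7.27. It was also high on KO CCI replicate 22, at 9.16, and on WT CCI replicates 13 and 35, at 9.07 and 9.75. Those 2 WT CCI arrays were the lowest of their group in 4 and 8 subunits and the highest in 2 and 1. On WT sham replicate 25 the choroid plexus list averaged 7.89 against a group median of 5.88, while its striatum list averaged 7.72. The part of such signal in the subunits' values was not tested. Without the 7 arrays with striatum or choroid plexus signal, 25 members rose in WT and 7 in KO, and the constitutive medians were 0.24 and 0.08. Of all 65956 rows, 4812 rose in WT and 4993 in KO in this setting.

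**Figure D3:**
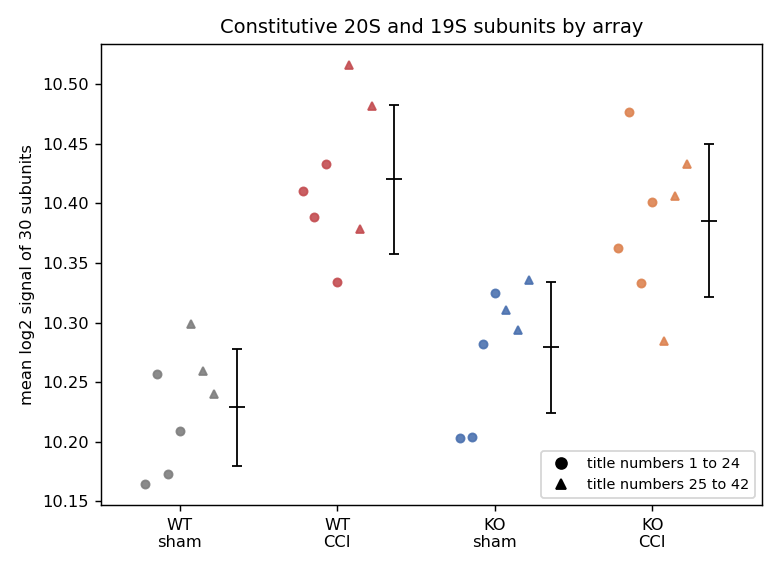
Mean log2 signal of the 30 constitutive 20S and 19S subunits (y axis) on each of the 28 arrays in the 4 groups, with mean and SD at the right of each group. Circles are title numbers 1 to 24 and triangles 25 to 42. WT CCI arrays, from 10.33 to 10.52, all lie above WT sham arrays, whereas the KO groups overlap.

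Sample titles run from 1 to 24 and from 25 to 42, each run with all 4 groups. In the first run alone, with 4 mice a group, 10 members rose in WT and 12 in KO, with constitutive medians of 0.20 and 0.13. In the second, with 3 mice a group, 5 rose in WT and 0 in KO, with medians of 0.18 and 0.05. Of all 65956 rows, 3505 rose in WT and 4031 in KO in the first run. In the second, 3105 of these rows rose in WT and 1294 in KO. Psme1 changed by 0.42 and 0.60 in WT and by 0.59 and 0.47 in KO in the first and second run. For Psmb8 the values were 0.29 and 0.29 in WT and 0.50 and 0.21 in KO, and for Psmb6 0.39 and 0.44 in WT and 0.38 and 0.08 in KO.

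Whether the injury change itself differed between the genotypes was tested for each member. None of the 50 was called, nor was any of the 65956 rows (0%), and 3 members had an unadjusted p under 0.05. These were Psma7 (-0.18, 95% confidence interval -0.33 to -0.03), Psmc1 (-0.17, -0.30 to -0.03) and Psma6 (-0.14, -0.27 to -0.01), each with a limma adjusted p = 0.779. Some of 50 members can have an unadjusted p under 0.05 where nothing differs, so it does not set these 3 apart. Psma7 ranged from 8.70 to 8.91 after sham and 8.86 to 9.07 after CCI in WT, and from 8.72 to 9.05 and 8.80 to 8.99 in KO. Psmc1 ranged from 10.67 to 10.88, 10.77 to 11.12, 10.76 to 10.85 and 10.76 to 10.95 in the same order. The estimate was below 0 in 29 of the 30 constitutive subunits (median -0.07), while the median over all rows was 0.02. The 30 subunits were measured on the same arrays. The larger number of members called in WT is therefore not shown to be a difference between the genotypes.

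Rbm5 knockout was compared with WT after each procedure. After sham 0 of 50 members were called, against 1.28% of all rows, and 4 had an unadjusted p under 0.05. The smallest p-values were those of Psmd14 (0.14, limma adjusted p = 0.114), Psma6 (0.12, 0.216) and Psmb6 (0.16, 0.307). Psmd14 ranged from 10.22 to 10.34 in WT sham and from 10.32 to 10.55 in KO sham, and 6 of 7 KO arrays lay above all WT arrays. After CCI 0 members were called, against 0.653% of rows, and 3 had an unadjusted p under 0.05. These were Psmd7 (-0.14, limma adjusted p = 0.284), Psma4 (-0.14, 0.358) and Psmc1 (-0.12, 0.36). Psmd7 ranged from 12.01 to 12.31 in WT CCI and from 11.93 to 12.12 in KO CCI, and Psma4 from 9.78 to 10.10 and from 9.66 to 9.91. The share of all rows with an unadjusted p under 0.05 is not given here, so these numbers set no member apart.

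Over both procedures 0 members were called between genotypes, against 3.16% of rows, and 5 had an unadjusted p under 0.05. The same limit holds for this unadjusted count. Psmd7, Psmd14 and Psma4 had the smallest p-values, with log2 differences of -0.10, 0.08 and -0.11 (limma adjusted p = 0.165, 0.181 and 0.192). No inducible member differed beyond the error of the comparison. After CCI, KO minus WT was 0.03 for Psmb8 (95% confidence interval -0.09 to 0.16), 0.02 for Psmb9 (-0.09 to 0.12), -0.15 for Psmb10 (-0.30 to 0.01) and -0.07 for Psme1 (-0.24 to 0.09). Between females and males 0 members were called, against 0.487% of rows, and 0 had an unadjusted p under 0.05.

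Each immunoproteasome subunit replaces a constitutive partner, so the difference between their log2 signals was taken within each array, for Psmb9 minus Psmb6 and for Psmb10 minus Psmb7. It compares signals and is no ratio of RNA amounts. Since Psmb9 was not shown to be above background, a shift of Psmb9 minus Psmb6 does not show whether the RNA of these genes changed unequally. Psmb9 minus Psmb6 was -4.20 ± 0.13 (SD, n = 7) in WT sham and -4.52 ± 0.20 in WT CCI, a difference of -0.32 (two-sided exact permutation test over 3432 splits, p = 0.00641, adjusted p = 0.0385 over 6 tests), and 6 of 7 CCI arrays lay below all sham arrays. The signal of Psmb6 rose by 0.41 in this comparison, and that of the dim Psmb9 changed by 0.09. The shift ranged from -0.37 to -0.28 without single arrays, with an adjusted p between 0.0035 and 0.0734, and the call was lost in 11 of these 14 tests. It was -0.46 without the 7 arrays with striatum or choroid plexus signal, where 6 against 3 arrays give 84 splits, and the exact permutation adjusted p of 0.0714 is the smallest p of that test (0.0119) times the 6 tests.

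In KO the difference for Psmb9 minus Psmb6 was -4.38 ± 0.19 after sham and -4.50 ± 0.14 after CCI, a change of -0.12 (exact permutation adjusted p = 0.577). After CCI the genotypes differed by 0.02 (exact permutation adjusted p = 0.943). Psmb10 minus Psmb7 changed by -0.01 in WT (-4.12 ± 0.16 to -4.13 ± 0.22) and by -0.03 in KO (-4.19 ± 0.13 to -4.22 ± 0.24), and the genotypes differed by -0.09 after CCI. None of these 3 was called (exact permutation adjusted p = 0.943, 0.943 and 0.914). With all 7 arrays a group, the smallest p these tests can give is 0.00058.

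**Figure D4:**
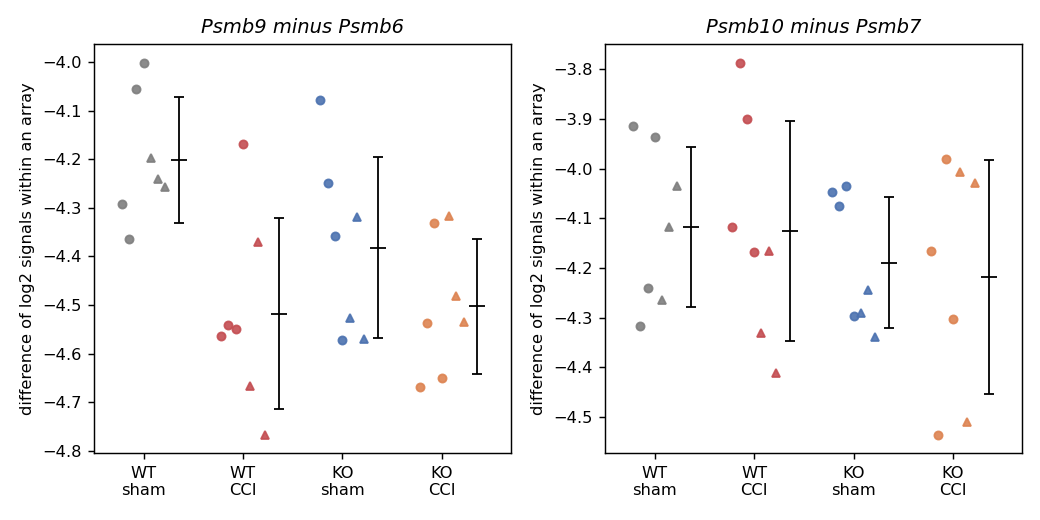
Within-array difference of log2 signals (y axis) for Psmb9 minus Psmb6 (left) and Psmb10 minus Psmb7 (right) in the 4 groups of 7 mice, with mean and SD. Circles are title numbers 1 to 24 and triangles 25 to 42. Psmb9 minus Psmb6, in which Psmb9 is near background, has a mean of -4.20 in WT sham and -4.52 in WT CCI, and Psmb10 minus Psmb7 overlaps between all groups.

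Other genes of the proteasome pathway were taken from a list of 26, of which 19 had a row of their own. In WT 3 rose and 4 fell, with a median log2 change of -0.05. Nfe2l2, the transcription factor NRF2, rose by 0.89 in WT (SE 0.089, limma adjusted p = 1.8e-08) and by 0.84 in KO (SE 0.09, limma adjusted p = 9.6e-08). Its values lay between 6.40 and 6.68 in WT sham and between 7.13 and 7.59 in WT CCI, and between 6.30 and 6.63 and between 6.85 and 7.56 in KO. The sham means of Nfe2l2, 6.50 in WT and 6.45 in KO, lay inside the range of the background probe rows, so its fold is not exact. Sem1, a small lid subunit, rose by 0.46 and 0.23. Its symbol does not match the rule, so it is not among the 30 constitutive subunits. Vcp, the segregase that extracts ubiquitinated proteins, rose by 0.39 and 0.27. The KO call of Sem1 (limma adjusted p = 0.0231) ended when replicate 10 of sham or replicate 21 or 22 of CCI was left out (adjusted p up to 0.0712).

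Those that fell in WT were the deubiquitinase Usp14 (-0.26), the ubiquitin shuttles Ubqln4 (-0.22) and Ubqln2 (-0.22), and Zfand5 (-0.14). The Ubqln2 call (limma adjusted p = 0.0158) ended without the 7 arrays with striatum or choroid plexus signal (-0.14, adjusted p = 0.166), and its change was -0.13 and -0.33 within the title runs (adjusted p = 0.297 and 0.0626). The Zfand5 call too ended without the 7 arrays (adjusted p = 0.0761), as did the KO call of Sem1 (adjusted p = 0.148). The Ubqln4 call ended when replicate 34 or 35 of WT CCI was left out (adjusted p up to 0.0554), and that of Zfand5 when any 1 of 7 arrays was left out (replicates 3, 4, 25 and 26 of sham, 15, 16 and 36 of CCI), with adjusted p up to 0.07. In KO 3 rose (Nfe2l2, Vcp and Sem1) and 4 fell, Ubqln4 (-0.33), Usp14 (-0.19), Ubqln1 (-0.16) and Fbxo7 (-0.16), with a median of -0.03. The Ubqln1 call ended when any 1 of 9 KO arrays was left out (replicates 10, 11, 12 and 33 of sham, 21, 22, 23, 40 and 41 of CCI), with adjusted p up to 0.118. Nfe2l1, the transcription factor that restores proteasome genes when the proteasome is inhibited, changed by 0.01 in WT and 0.01 in KO, and the assembly factor Pomp by 0.14 in both. Neither was called.

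Uchl5, a deubiquitinase of the 19S particle, was the list's 1 gene called between the genotypes after sham and after CCI. It lay between 11.15 and 11.27 in WT sham (median 11.19) and between 10.81 and 10.998 in KO sham (median 10.89), without overlap. After CCI it lay between 10.94 and 11.34 in WT (median 11.14) and between 10.71 and 11.02 in KO (median 10.89), with overlap. Uchl5 fell by 0.30 in KO after sham (SE 0.055, limma adjusted p = 0.003) and fell by 0.26 after CCI (SE 0.054, limma adjusted p = 0.0178). The call after CCI ended when replicate 13 of WT or replicate 40 of KO was left out (adjusted p up to 0.0532), and likewise without the 7 arrays with striatum or choroid plexus signal (adjusted p = 0.168). Over both procedures the difference was -0.28 (SE 0.038, limma adjusted p = 3.6e-05), and -0.22 and -0.35 within the title runs (adjusted p = 0.0611 and 0.0575). Akirin2, which carries the proteasome into the nucleus, was higher in KO over both procedures by 0.11 (limma adjusted p = 0.0202), a call lost without the 7 arrays (adjusted p = 0.222).

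Of 12 measured genes for loading of MHC class I, 10 rose in WT and 11 in KO, with median log2 changes of 0.48 and 0.36. B2m, the light chain of class I, rose by 0.98 in WT (SE 0.16) and by 0.73 in KO (SE 0.16). Tap1, the neighbour of Psmb8 and Psmb9, rose by 0.21 in WT (limma adjusted p = 0.0121) and by 0.26 in KO (limma adjusted p = 0.0027). Of 17 genes of interferon signalling, 12 rose in WT, and in KO 9 rose and Irf2 fell. Stat3 rose by 1.497 and 1.33, and Irf1, a transcription factor of immunoproteasome genes, by 0.18 in both genotypes. Group means of Tap1 (5.68 to 5.95) and Irf1 (5.63 to 5.82) lay inside the range of the background probe rows, 2.63 to 6.59. Their signal was thus not shown to be above background either. Nlrc5 had no row of its own.

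Cell type markers also changed with injury, not all in the same direction. Of 12 microglia and macrophage genes, 10 rose in each genotype, with median log2 changes of 1.49 and 1.25. Their mean signal lay between 7.31 and 7.47 after sham and 8.51 and 9.33 after CCI in WT, and between 7.37 and 7.71 and between 8.47 and 9.13 in KO. Of 11 leukocyte genes, 6 rose in each genotype, and Cd8a was called lower in WT. The mean of these 11 genes lay between 5.63 and 5.95, 6.35 and 6.82, 5.58 and 5.71, and 6.28 and 6.71 in the same order. Cd8a had group means of 4.71 in WT sham and 4.46 in WT CCI. Both values, like the list's sham means, lay within the range of the background probe rows, 2.63 to 6.59. The Cd8a call therefore does not show a loss of its RNA. Of 8 astrocyte genes, 6 rose in WT and 4 in KO, and Slc1a2 fell in both genotypes. The astrocyte means lay between 9.77 and 9.94, 11.17 and 11.75, 9.84 and 10.78, and 11.22 and 11.64. Of 6 endothelial genes, 4 rose in WT and 3 in KO, and Slco1a4 fell in both genotypes. Of 8 neuron genes, 5 fell in each genotype. Of 5 oligodendrocyte genes, 4 rose in WT and 0 in KO. The lowest log2 signal of any tested row was 2.21, so a signal above 0 does not show that a listed gene was expressed. The part of these cells in the members' changes was not tested.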

How the data were processed

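Total RNA from cortex of 28 mice was labelled with biotin and hybridised to MTA 1.0 arrays, per the labels' protocols. The deposited table holds log2 signal, as read from its values; no source used here gives the authors' normalization, and the values were used as deposited. Control rows (6732) were left out. Gene names came from the supplied platform annotation, updated through RefSeq of GRCm38.p6, and rows listing several genes were not named. With lmFit and eBayes of limma 3.58.1 (R 4.3.3), 4 group means and an additive sex term were fitted to all 65956 tested rows. Tests were two-sided, with Benjamini-Hochberg adjustment over these rows and a threshold of 0.05. The fit was tested on simulated data. Within-array differences were compared with exact permutation tests. The 3 tests of Psmb8 against Psmb5 were not run because Psmb5 has no row of its own, which left 6 tests.

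Values in all groups are given for the immunoproteasome subunits, their partners and the activators, for the 3 other members with the largest called rise in each injury comparison, and for the 3 with the smallest p where none was called. Psmc2, Psmd2, Psmd6 and the remaining members named in counts were chosen after their values were seen. Members and lists were chosen with earlier results of these data known. Each mouse gave 1 array, and precision is limited by their number. Python 3.11.15, pandas 2.3.3 and matplotlib 3.10.9 were used for summaries and figures.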

Additional observations from a re-analysis of the deposited data

Results flagged for a closer look

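In 18 named members and 4 groups each (72 groups of 7 values), 4 groups held an array set apart from the others of its group; chance alone marks about 1 in 20 groups. Psma8 on KO sham replicate 33 was at 5.0082, below the next array at 5.2142. Psmb7 on KO CCI replicate 40, an array with striatum and choroid plexus signal, was at 11.1845, below the next at 11.5627. Psmb8 on WT sham replicate 27 was at 5.657, above the next at 5.4974. Psmc1 on KO CCI replicate 41 was at 10.946, above the next at 10.8345.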

How the results depend on the processing

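The number of members called with injury ranged from 19 to 25 in WT and from 7 to 13 in KO when single arrays were left out, and 17 of the 24 WT calls and 7 of the 10 KO calls held without each array in turn. In WT it was 10 and 5 within the first and second title runs and 13 at an adjusted p under 0.01. Of all 65956 rows, 3505, 3105 and 4157 rose in WT in these settings. In KO it was 0 in the second run, 17 with quantile normalization and 6 at an adjusted p under 0.01, and the cause was not tested. In these KO settings 1294, 5236 and 3598 of all rows rose. Median centring gave 17 in WT and, in KO, 6 that rose and 2 that fell, and turned the split of all rows in KO from 5560 higher and 5457 lower to 4021 and 7576. Genotype, interaction and sex counts were 0 without each array in turn.

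Psmb9 minus Psmb6 with injury in WT was -0.277 (first run), -0.369 (second run) and -0.459 (without the 7 arrays), none called, and between -0.375 and -0.275 without single arrays. In these settings, with 4 against 4, 3 against 3 and 6 against 3 arrays, the smallest p times the 6 tests is 0.171, 0.6 and 0.0714, so a single such difference could not pass the threshold, and the missing calls say nothing about stability. Psmb9 minus Psmb6 in KO was called with quantile normalization (-0.23, adjusted p = 0.0332) and was 0.028 in the second run. Between genotypes after CCI it was -0.027 with quantile normalization and -0.091 in the first run. Psmb10 minus Psmb7 was 0.109 in WT in the first run, 0.109 in KO in the second run, and between genotypes after CCI 0.121 in the second run and 0.017 without the 7 arrays. Without single arrays these 5 ranged from -0.152 to -0.07, -0.026 to 0.073, -0.065 to 0.0396, -0.069 to 0.024 and -0.141 to -0.036, in the order named.

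Some uncalled changes turned sign. In the second run these were Psmb7 (-0.205), Psmb10 (-0.087), Psmb1 (-0.058) and Psme3 (0.017) in KO, and Nfe2l1 (-0.043) and Pomp (-0.112) in WT. With median centring they were Psmb10 (-0.023) and Nfe2l1 (-0.037) in KO and Nfe2l1 in WT (-0.0047), and without the 7 arrays Nfe2l1 in WT (-0.025). Without single arrays Psmb10 in KO ranged from -0.01 to 0.056, and Nfe2l1 from -0.012 to 0.028 in WT and from -0.0089 to 0.024 in KO.

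No paired analysis was possible because each title number belongs to 1 array. The mean of all rows of a symbol was not run, since every member has 1 row. Signal near background limits what Psmb8 and Psmb9 can show.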
